A study of Mus musculus with 18 samples.

Results

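Pax7, Pax3, Myf5, Myod1, Myog and Myf6 are the transcription factors that define the muscle lineage, and their transcripts were followed in cultured mouse satellite cells with and without conditional deletion of Hoxa10. Satellite cells are the stem cells of skeletal muscle. The 6 genes were chosen by name, and all 6 were found among the 50689 features of the count table by matching mouse Ensembl identifiers to symbols. The paired-box factors Pax7 and Pax3 mark and maintain muscle stem and progenitor cells. Myf5, Myod1, Myog and Myf6 form the MyoD family of basic helix-loop-helix factors, which bind DNA as partners of E proteins. In activated satellite cells Myf5 and Myod1 establish the myoblast, Myog drives its differentiation into myotubes, and Myf6, also called Mrf4, acts late and is the main family member of mature muscle fibres.

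RNA was sequenced from proliferating satellite cells of the tibialis anterior muscle of C57BL6 mice, cultured on matrigel in growth medium, in 9 scKO and 9 control libraries. The scKO cells carried Pax7-CreERT2/+ with both copies of Hoxa10 floxed (Hoxa10f/f) and received 4-hydroxytamoxifen at 1 µM for 2 days. Control cells carried Hoxa10f/f alone, and the labels give no such treatment for them, so Cre, 4-hydroxytamoxifen and deletion of Hoxa10 cannot be told apart. The Cre allele is placed in Pax7 itself, one of the genes described here, and the labels do not say whether that copy still makes Pax7 transcript. The age of the mice and the number of animals or cultures behind the libraries are not labelled either, and p-values therefore measure only the spread between these libraries.

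Libraries fell into 2 depth classes, each with both groups. In the 13 shallow libraries, with under 2000000 counts each, totals ran from 613915 to 968559 in 6 scKO and from 420197 to 917166 in 7 control libraries. In the 5 deep libraries they ran from 5295236 to 5842408 in scKO 6, 7 and 9 and from 4346150 to 5986128 in control 1 and 2. Values are counts of unique molecular identifiers (UMIs, tags that mark single molecules), and no count exceeds the number of different UMIs of 6 bases, so abundant genes meet a ceiling in deep libraries. Within the shallow class control 7, 8 and 9 and scKO 1 had scores of -35.3 to -30.5 on the leading principal component (39.5% of the variance). The other 9 libraries had scores of 7.25 to 19.7. Shallow member fits, summed Myf6 counts, correlations and numbers of genes called are therefore also given without these 4 libraries. Values of the list genes, permutation tests of the group difference and ratios between members include them. Hoxa10, the targeted gene, lay between 1.89 and 10 CPM in scKO libraries and between 14.9 and 64.7 CPM in control libraries. CPM here are counts relative to library totals that were scaled by the trimmed mean of M-values. The 10 markers listed for satellite cells and myoblasts were all detected, and summed to 6960 to 9390 CPM on unscaled totals in shallow scKO and 6180 to 9690 CPM in shallow control libraries. In deep libraries they summed to 3440 to 3780 CPM in scKO and 3580 to 4000 CPM in control. Markers of other cell types, summed per library and unscaled, reached in scKO libraries 477 CPM for tendon, 210 for smooth muscle and pericytes, 71.5 for Schwann cells, 80.3 for fibro-adipogenic cells, 38.1 for endothelium and 7.3 for leukocytes. In control libraries the same sums reached 459, 239, 126, 114, 49.5 and 5.18 CPM in that order. These are the highest sums over both depth classes. In bulk RNA, fewer cells of a kind and less RNA per cell cannot be told apart.

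The 4 MyoD family genes descend from one ancestor, so it matters whether their reads can be separated. In the GENCODE M21 transcripts the longest run of identical bases between any pair of them was 26 bases, between Myf5 and Myod1, and 12 to 21 bases in the other 5 pairs. Pax7 and Pax3 also shared a run of at most 26 bases. The read length is not given in the sources used here. The coding stretch of 90 bases in which the other 3 are most like Myod1 is printed 5′ to 3′ from GENCODE M21 (GRCm38). Capitals mark the 32 positions where the 4 genes are not all the same. The stretch was chosen by identity to Myod1 over its whole length. The run of 26 bases shared by Myf5 and Myod1 does not lie wholly inside it. The stretch starts at coding base 301 in Myf5, 379 in Myod1, 295 in Myog and 331 in Myf6.
Myf5: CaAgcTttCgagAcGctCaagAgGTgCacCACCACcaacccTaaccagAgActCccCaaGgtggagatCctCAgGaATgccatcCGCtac
Myod1: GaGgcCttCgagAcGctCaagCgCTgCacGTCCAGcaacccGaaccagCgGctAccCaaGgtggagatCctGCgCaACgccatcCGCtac
Myog: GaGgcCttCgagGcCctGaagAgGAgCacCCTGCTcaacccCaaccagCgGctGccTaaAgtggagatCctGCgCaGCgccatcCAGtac
Myf6: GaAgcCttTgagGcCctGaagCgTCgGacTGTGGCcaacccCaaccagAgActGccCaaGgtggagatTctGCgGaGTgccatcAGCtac
Identity to Myod1 in this stretch was 82.2% for Myf5, 78.9% for Myog and 74.4% for Myf6.

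In the shallow libraries, where counts of all 6 genes lie well below that ceiling, none of the members differed between scKO and control past the threshold. Pax7, Myf5, Myod1 and Myog passed the filter on low counts, and edgeR called 0 of these 4, against 0.0434% of the 6906 genes tested. Pax3 and Myf6 had too few counts to be tested there. At an unadjusted p under 0.05 edgeR found 425 genes (6.15%), and none of the 4 members was among them. DESeq2 and limma-voom called 0 of these 4 members either. Without control 7, 8 and 9 and scKO 1 the log2 ratios of scKO over control were 0.43 for Pax7, -0.06 for Myf5, 0.27 for Myod1 and 0.10 for Myog, again with no edgeR call (lowest adjusted p = 0.605, for Myod1).

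Pax7 (chromosome 4, 139737062 to 139833528, minus strand, GRCm38) is the defining transcription factor of satellite cells. In shallow libraries it had 22.7 CPM at the lowest, 33.1 at the median and 49.8 at the highest in scKO, against 23.3, 29.7 and 44.3 CPM in control, so the groups overlapped over most of their range. The log2 ratio of scKO over control, given from here on with its standard error (SE), was 0.28 (SE 0.22, 95% interval -0.19 to 0.74; edgeR adjusted p = 0.843), and the two-sided exact permutation p for log2 CPM was 0.256. Shallow libraries held 15 to 41 Pax7 counts in scKO and 8 to 26 in control, so counting error limits these levels.

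Deep libraries hold more Pax7 counts and leaned the other way. Scaled levels were 31.3, 36.3 and 41.8 CPM in scKO 6, 7 and 9, against 36.4 and 50.7 CPM in control 1 and 2. The 2 control libraries differed from each other by more than the 2 group means of 36.5 and 43.5 CPM did, and the scKO values reached above control 1. The log2 ratio was -0.28 (SE 0.16, 95% interval -0.64 to 0.07; edgeR adjusted p = 0.28), with -0.50 without control 1 (edgeR adjusted p = 0.0587) and -0.01 without control 2 (adjusted p = 0.988). The difference between the effects in the 2 depth classes was tested directly and was -0.55 (SE 0.31; edgeR adjusted p = 0.889). Over all 18 libraries with the depth class in the model Pax7 had a log2 ratio of 0.04 (SE 0.16; edgeR adjusted p = 0.965). That value turned negative with limma-voom (-0.02) and without scKO 2 (-0.03) or scKO 3 (-0.04).

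Pax3 (chromosome 1, 78101267 to 78197134, minus strand), the paralog of Pax7 that acts in limb muscle progenitors of the embryo, was close to the limit of detection. Shallow libraries held 0 to 5 Pax3 counts in scKO, 13 in all, and 0 to 3 in control, 10 in all. A count of 3, taken as the floor, corresponds to 3.1 to 4.89 CPM in shallow scKO and 3.27 to 7.14 CPM in shallow control libraries, unscaled. The ratio of the summed shallow counts per total, scKO over control, was 1.44 with a 95% Poisson interval of 0.582 to 3.66, which covers counting error only. Deep libraries held 33, 33 and 34 Pax3 counts in scKO 6, 7 and 9 and 30 and 49 in control 1 and 2, or 4.41, 4.06 and 4.69 CPM in scKO against 5.27 and 5.75 CPM in control. All 3 scKO values lay below both control values, as was the case for 22.3% of the 13136 genes tested in deep libraries, and the log2 ratio of -0.35 (SE 0.24, 95% interval -0.87 to 0.17) was no edgeR call (adjusted p = 0.366).

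**Figure D1:**
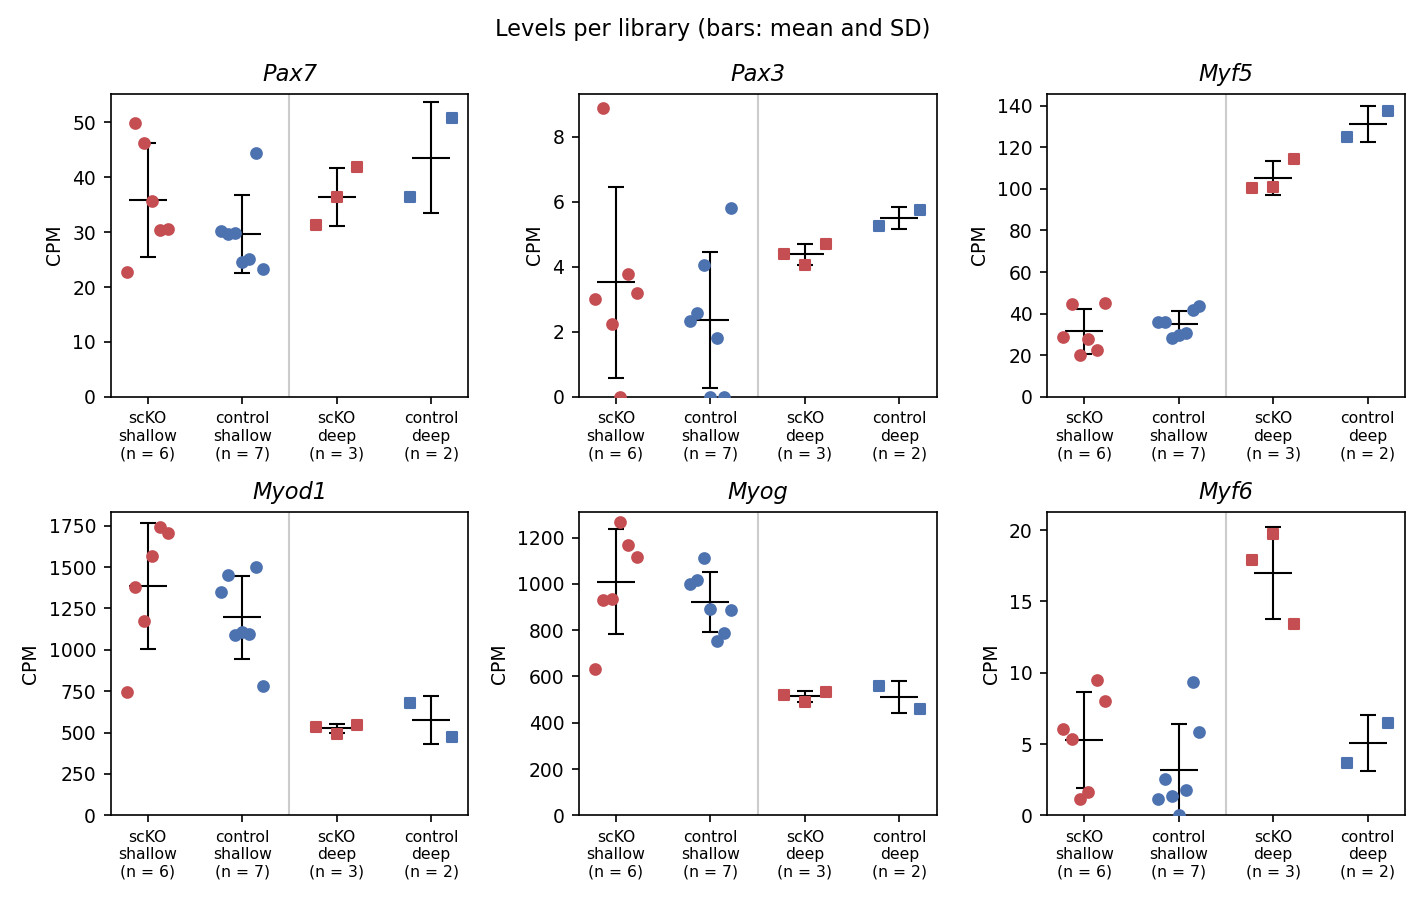
Level of each gene in every library (y axis, CPM on scaled totals), by group and depth class (circles: shallow; squares: deep; bars: mean and SD). Myf6 stands at 13.4 to 19.7 CPM in the 3 deep scKO libraries, above 3.69 and 6.46 CPM in the 2 deep control libraries, while the shallow groups overlap for all 6 genes.

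Myf5 (chromosome 10, 107482908 to 107486134, minus strand), an early determination factor of the MyoD family, overlapped between the groups in shallow libraries and was lower in scKO in deep ones. Shallow levels were 20.3 CPM at the lowest, 28.2 at the median and 44.9 at the highest in scKO, against 28.4, 36.1 and 43.7 CPM in control. Shallow scKO 3, 4 and 5 lay below the lowest control library and scKO 2 and 8 above the highest, so the scKO libraries were the more spread. The log2 ratio there was -0.17 (SE 0.22, 95% interval -0.63 to 0.30; edgeR adjusted p = 0.903; exact permutation p = 0.313). Leaving out 1 library at a time gave -0.29 (without scKO 8) to -0.04 (without scKO 3), and no fit called it.

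In deep libraries Myf5 stood at 100.2, 101.1 and 114.4 CPM in scKO 6, 7 and 9, against 124.9 and 137.3 CPM in control 1 and 2, and the groups did not overlap, as for the 22.3% of genes tested there that were lower in every scKO library. Myf5 fell there, with a log2 ratio of -0.33 (SE 0.10, edgeR adjusted p = 0.035), one of 2 members that edgeR called in the deep comparison. Of all genes tested in that comparison edgeR called 14.3% in either direction and 7.03% lower. With 3 against 2 libraries the exact permutation test cannot go below p = 0.1, which is the value it gave. The call was lost with DESeq2 (adjusted p = 0.0664) and limma-voom (adjusted p = 0.0518), and without control 2 (-0.26, edgeR adjusted p = 0.164), scKO 6 (-0.29, adjusted p = 0.0852) or scKO 7 (-0.30, adjusted p = 0.143). Over all 18 libraries with the depth class Myf5 had -0.23 (SE 0.15; edgeR adjusted p = 0.578), and the 2 classes differed by -0.16 in their effect (SE 0.30; edgeR adjusted p = 0.971).

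Myod1 (chromosome 7, 46376474 to 46379099, plus strand), the factor that commits cells to the muscle fate, had 744.6 CPM at the lowest, 1474 at the median and 1743 at the highest in shallow scKO, against 780.6, 1106 and 1498 CPM in shallow control libraries. In scKO 4, 5 and 8 it exceeded every shallow control, while scKO 1 was the lowest of all 13 libraries. The log2 ratio was 0.20 (SE 0.19, 95% interval -0.20 to 0.60; edgeR adjusted p = 0.861; exact permutation p = 0.433). Correcting counts for UMIs drawn more than once left the direction and the lack of a call as they were, and so did each of the 13 fits without 1 library, which gave 0.13 to 0.34.

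Myog (chromosome 1, 134289989 to 134292548, plus strand), the differentiation factor, had 634.2 CPM at the lowest, 1025 at the median and 1269 at the highest in shallow scKO, against 753.5, 889.3 and 1112 CPM in shallow control libraries. Both extremes were scKO libraries, with scKO 1 lowest and scKO 4 highest. Its log2 ratio was 0.12 (SE 0.16, 95% interval -0.21 to 0.45; edgeR adjusted p = 0.898; exact permutation p = 0.55), and leaving out 1 library at a time gave 0.05 to 0.23. In the main shallow fit the intervals of Myod1 and Myog ended at 0.60 and 0.45, so larger rises lie outside these intervals. The ends depend on the fit. They were 0.67 and 0.50 with counts corrected for UMIs drawn more than once, and 0.68 and 0.53 without scKO 1.

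Deep libraries give no reading of Myod1 or Myog. Myod1 held 3988, 4010 and 3977 counts in scKO 6, 7 and 9 and 3878 and 4027 in control 1 and 2, close to the ceiling. Myog held 3887, 3967 and 3875 counts in the same scKO libraries and 3192 and 3927 in control.

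The ratio of Myog to Myod1 within a library, which does not depend on scaling, averaged -0.44 ± 0.17 log2 units in shallow scKO (SD, n = 6) and -0.36 ± 0.37 in shallow control libraries (SD, n = 7). Control libraries ran from -0.93 to 0.19 and scKO libraries from -0.62 to -0.23, inside the control range. Myf5 to Pax7 averaged -0.21 ± 0.62 log2 units in shallow scKO (SD, n = 6) and 0.26 ± 0.33 in shallow control libraries (SD, n = 7), with ranges of -1.19 to 0.56 and -0.08 to 0.91. These ratios are given as values with no test.

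Myf6 (chromosome 10, 107492853 to 107494737, minus strand), the member linked to mature fibres, was higher in scKO in the deep libraries. It lies 6718 bases from Myf5 and is transcribed from the same strand. Deep libraries held 134, 160 and 97 Myf6 counts in scKO 6, 7 and 9, against 21 and 55 in control 1 and 2, or 17.9, 19.7 and 13.4 CPM in scKO against 3.69 and 6.46 CPM in control. Every deep scKO library exceeded both deep control libraries, as was the case for 23% of the genes tested there. Myf6 rose by a log2 ratio of 1.68 (SE 0.25; 95% interval 1.14 to 2.22; edgeR adjusted p = 0.00102), where edgeR called 7.31% of genes higher. All 5 fits without 1 deep library called it, with 1.37 without control 1 and 2.19 without control 2, and so did DESeq2 (1.69, adjusted p = 4.79e-06) and limma-voom (1.69, adjusted p = 0.00408). The exact permutation test gave p = 0.1, the smallest that 3 against 2 libraries allow.

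Shallow libraries held few Myf6 counts, and the groups overlapped. There were 4, 3, 1, 1, 5 and 5 Myf6 counts in scKO 1, 2, 3, 4, 5 and 8, against 1, 2, 1, 0, 1, 4 and 2 in control 3 to 9. The ratio of summed counts per total was 1.91, scKO over control, with a 95% Poisson interval of 0.863 to 4.44 that covers counting error only, and 3.39 (1.08 to 14.0) without control 7, 8 and 9 and scKO 1. Control 8, one of those set apart, held 4 of the 11 control counts. In the shallow fit without a count filter the log2 ratio was 0.91 (SE 0.60, 95% interval -0.28 to 2.09; edgeR adjusted p = 0.652), a fit that called 0.0688% of 18902 genes.

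Over all 18 libraries with the depth class Myf6 did not meet the count filter and was not tested. The fit without the filter gave a log2 ratio of 1.52 (SE 0.27, edgeR adjusted p = 1.32e-05), with 1.48% of 24176 genes called. Most Myf6 counts in that fit came from the deep libraries, 391 in scKO and 76 in control, against 19 and 11 in the shallow ones. That fit therefore largely repeats the deep result and is not independent of it. Relabelling libraries within depth classes gave a difference in log2 CPM of 1.01 with an exact two-sided permutation p = 0.0476, one of 6 such tests, unadjusted. The shallow libraries alone, scaled among themselves, gave a difference of 0.44 (exact permutation p = 0.254). The depth classes differed by 0.75 in their effect (SE 0.68; edgeR adjusted p = 1), with an interval of -0.59 to 2.08. Markers of another cell type moved with Myf6 in deep libraries: the 4 Schwann cell markers summed to 28.6 to 57.7 CPM in scKO and 9.35 to 15.4 CPM in control, unscaled. Of them Sox10, a Schwann cell transcription factor, held 129, 252 and 177 counts in scKO and 45 and 41 in control. In shallow libraries the Schwann cell markers summed to 8.07 to 71.5 CPM in scKO and 25.1 to 126.0 CPM in control. Sox10 had a log2 ratio of -1.35 there, the opposite direction, and was no edgeR call (adjusted p = 0.80). Myh11, listed for smooth muscle and pericytes, also rose in deep libraries (1.61, edgeR adjusted p = 0.0166). The 4 markers of that list summed to 188 to 210 CPM in deep scKO and 218 to 239 CPM in deep control libraries. The part of these markers in the Myf6 result was not tested.

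**Figure D2:**
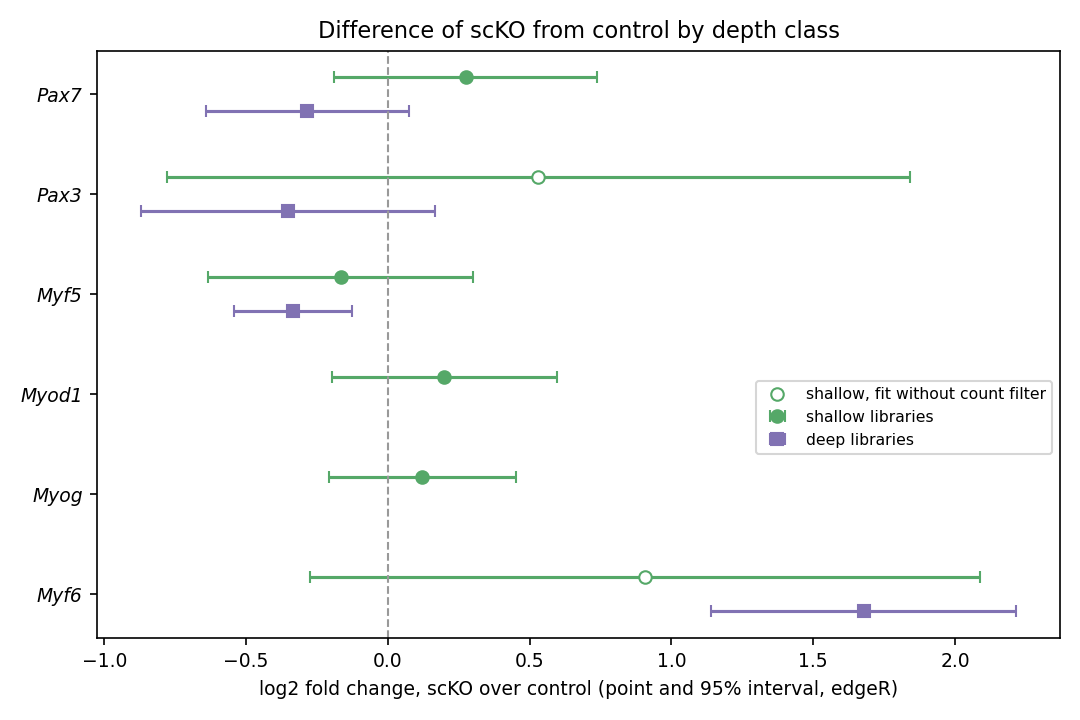
Log2 fold change of scKO over control (x axis, with 95% intervals) for each gene in shallow libraries (circles) and deep libraries (squares); open circles are from the fit without a count filter, and Myod1 and Myog have no deep value because of the count ceiling. The deep intervals of Myf6 and Myf5 exclude 0, on opposite sides.

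Depth class went with the level of some members more than with the group. Myf5 was 1.88 log2 units higher in deep than in shallow libraries in the fit over all libraries, a larger shift than 98.6% of the 7662 genes tested (median -0.01), whereas Pax7 was 0.32 higher. The Myf5 to Pax7 ratio accordingly averaged 1.54 ± 0.12 log2 units in deep scKO (SD, n = 3) and 1.61 ± 0.24 in deep control libraries (SD, n = 2), above every shallow library. Deep Myf5 counts of 711 to 1170 lie below the ceiling, and with counts corrected for repeated UMIs these ratios were 1.64 and 1.74. No such shift is read for Myod1 and Myog, whose deep counts lie near the ceiling.

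Among the 4 members with enough counts, no pair rose and fell together across shallow libraries past the threshold once p-values were adjusted. The 13 shallow libraries form the 2 clusters described above, so correlations are given within the cluster of 9, with 5 scKO and 4 control libraries and 6 relations in the family. Myod1 and Myog were the most closely related pair, with Pearson r = 0.625 (exact permutation p = 0.0755, adjusted p = 0.453) and Spearman rho = 0.65 (exact permutation p = 0.0666, adjusted p = 0.399). Without the 2 libraries farthest from the median of Myod1 the Pearson r was 0.815. Pax7 and Myf5 had Pearson r = -0.02 (exact permutation p = 0.966, adjusted p = 0.994) and Spearman rho = 0.03 (exact permutation p = 0.948), and without scKO 2 and 3 the Pearson r was -0.04.

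Pax7 and Myog had Pearson r = -0.19 (exact permutation p = 0.617, adjusted p = 0.994) and Spearman rho = 0.03 (exact permutation p = 0.948, adjusted p = 0.948), but Pearson r was 0.891 without scKO 2 and 3, which were highest in Pax7, so the value rests on those 2 libraries. The other 3 pairs had Pearson r from -0.13 to 0.26. Of them Pax7 and Myod1 had 0.00323, and 0.593 without scKO 2 and 3, so this value rests on those 2 libraries as well. Pax7 and Myf5 had 12 to 41 counts in these 9 libraries, so counting error limits what their correlations can show.

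**Figure D3:**
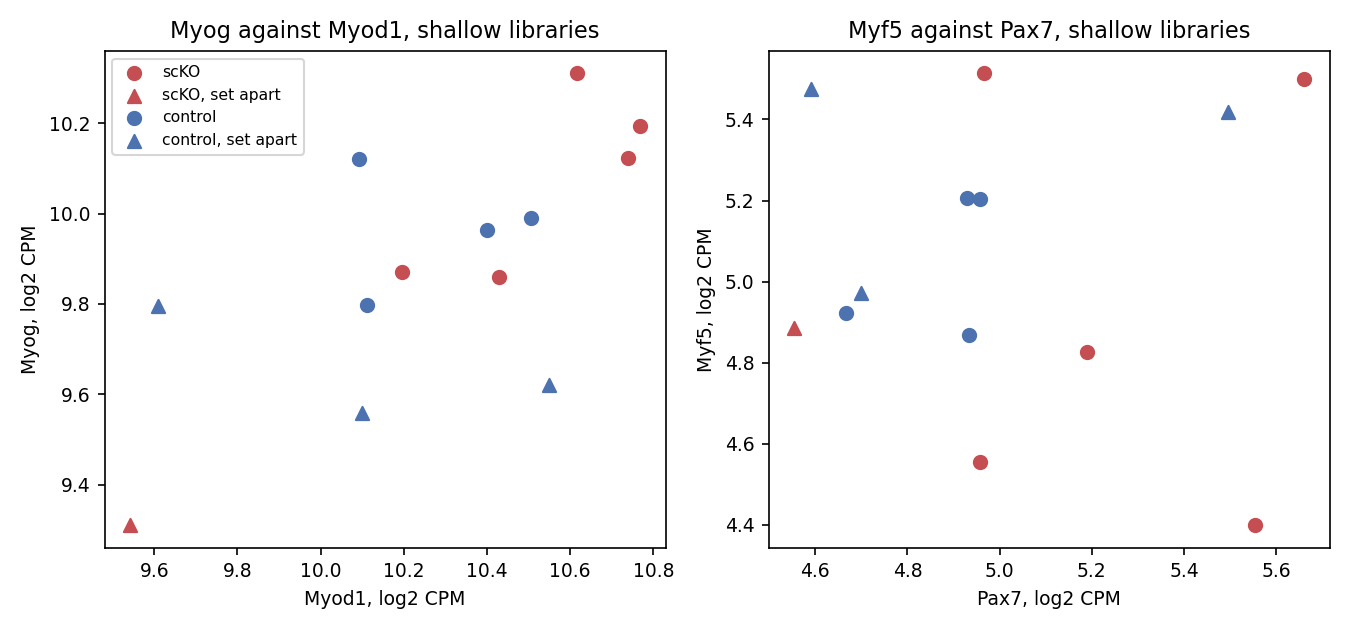
Log2 CPM of Myog against Myod1 (left) and of Myf5 against Pax7 (right) in the 13 shallow libraries (red: scKO; blue: control; triangles: control 7, 8 and 9 and scKO 1). Among the 9 circles Pearson r was 0.625 for Myog and Myod1 and -0.02 for Myf5 and Pax7, and neither passed the threshold after adjustment.

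The genes whose levels ran most closely with each member over the 13 shallow libraries were taken as the 3 with the highest Spearman rho among 2642 genes with a mean of at least 50 counts. For Myog they were Cdkn1a, the p21 inhibitor of cell cycle kinases that myoblasts switch on as they leave the cycle (rho = 0.896), the ribosomal protein gene Rpl23a (0.885) and Pkia, an inhibitor of protein kinase A (0.874). For Myod1 they were the deubiquitinase gene Otud1 (0.907), Prkar1a, a regulatory subunit of protein kinase A (0.863), and the ubiquitin ligase gene Ube3a (0.863). For Pax7 they were the calcium pump gene Atp2a2 (0.863), Tecr, an enzyme of fatty acid elongation (0.863), and Dag1, which encodes dystroglycan (0.852). For Myf5 they were Lrrn1 (0.863), the proteasome subunit gene Psmd12 (0.758) and Bzw1 (0.747). Within the cluster of 9 libraries the rho of these 12 genes to their member was 0.667 to 0.917. They are the highest of many, and are given as a description.

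Partners and regulators of the MyoD family, from lists chosen with earlier results of these data known, held no edgeR call in the shallow libraries. The 3 E proteins, the DNA-binding partners, had log2 ratios of -0.24 for Tcf3, -0.11 for Tcf12 and -0.06 for Tcf4. Of 13 tested inhibitors, 7 had positive values (median 0.04, against -0.02 over all genes tested), led by Hes1, a Notch effector, with 0.37, Id3, which sequesters E proteins, with 0.31 and Heyl, another Notch effector, with 0.24. Hey1, a Notch effector named after its value was seen, had -0.40 in the same fit. Upstream factors and coactivators had 6 of 18 positive (median -0.07), with Kmt2a, a histone methyltransferase, at -0.57 (SE 0.21; edgeR adjusted p = 0.729) and Eya4 at -0.31. Of the Mef2 factors, which act with the MyoD family on muscle genes, Mef2d had 0.31, Mef2c 0.23 and Mef2a -0.03. Targets in differentiating myoblasts had 13 of 27 positive (median -0.002), and the smallest p-values belonged to Myl4 at 0.35, Cdkn1a at 0.24 and Chrna1 at 0.20. With the depth class over all 18 libraries 0 members of the 5 lists were called either, against 0.679% of all genes.

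In the deep libraries 6 of the 28 targets rose and 0 fell, against 7.31% of all genes called higher and 7.03% called lower. The list was chosen with earlier results of these data known, so this share is given as a description. Of the 28, 17 had at least 3000 counts in a deep library, near the ceiling, among them Acta1, Myh3, Mymk and Ttn, and all 6 calls were among the other 11. Ckm, the muscle creatine kinase, stood at 249.0, 225.0 and 209.0 CPM in scKO 6, 7 and 9, against 144.0 and 120.0 CPM in control 1 and 2 (log2 ratio 0.77, SE 0.11; edgeR adjusted p = 0.000743). Mymx, the fusion peptide also called myomerger, stood at 137.0, 133.0 and 106.0 CPM in scKO, against 71.5 and 75.2 CPM in control (0.76, SE 0.11; edgeR adjusted p = 0.000974). For both genes every scKO library exceeded both controls, as for 23% of the genes tested. Rb1, the retinoblastoma protein gene, rose by 0.67, Tnni2, fast troponin I, by 0.65, Mybph, a myosin-binding protein, by 0.63 and Chrnd, the delta subunit of the acetylcholine receptor, by 0.41 on the log2 scale.

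The same 6 genes had shallow log2 ratios of 0.29 for Ckm, -0.26 for Mymx, 0.02 for Rb1, -0.43 for Tnni2, -0.35 for Mybph and -0.002 for Chrnd, none an edgeR call. Their difference between depth classes ran from 0.42 for Chrnd to 1.08 for Tnni2, with the smallest edgeR adjusted p of 0.463 for Mymx (1.04, SE 0.31), so none passed. Across all genes edgeR called 0 of 7662 for a difference between the classes, with 473 (6.17%) at an unadjusted p under 0.05. Other deep calls in the lists were Mef2a and Mef2c, which rose by 0.49 and 0.41, Zeb1, a repressor that competes for E-boxes, which rose by 0.45, and the inhibitor Mdfic and the upstream factor Pitx3, which fell by 0.51 and 0.43. Mef2c reached 3359 counts, near the ceiling.

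**Figure D4:**
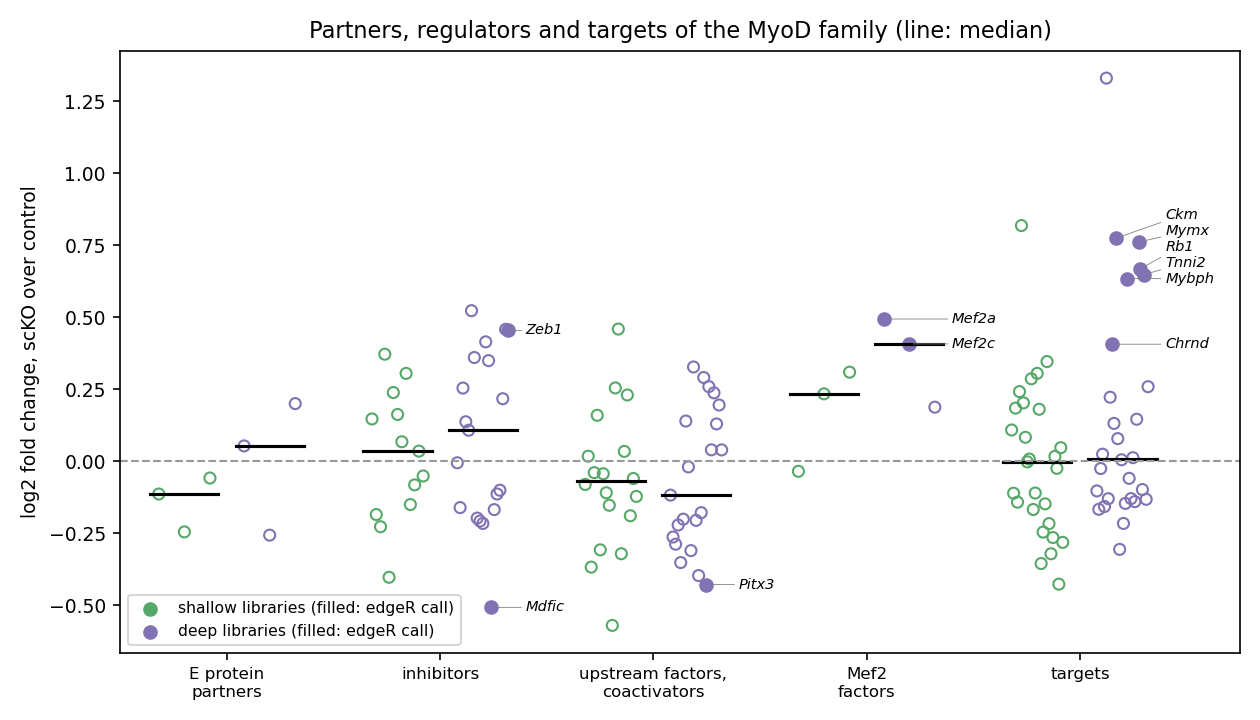
Log2 fold change of scKO over control (y axis) for the genes of 5 lists around the MyoD family, in shallow libraries (green, left of each pair) and deep libraries (violet, right); filled points are edgeR calls, lines are list medians. Filled points appear in deep libraries alone, with Ckm and Mymx highest among them at 0.77 and 0.76; 17 of the 28 targets lie near the count ceiling there.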

How the data were processed

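The authors deposited 1 table of raw UMI counts for 18 libraries, a unit taken from its name and its whole numbers. HISAT2 and HTSeq, and the rat build Rnor_6.0, are named in the submitters' processing notes; the identifiers are mouse Ensembl genes and were used as deposited. Kit, annotation release, use of strand, UMI length and read length are not given in the sources used here. The highest count equals the number of different UMIs of 6 bases. Positions came from GENCODE M21 (GRCm38).

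Counts were fitted across all genes with edgeR 4.0.16 in R 4.3.3 (filterByExpr, TMM scaling, robust quasi-likelihood test, Benjamini-Hochberg adjustment, threshold 0.05) in the 13 libraries under 2000000 counts, in the 5 above, and in all 18 with the depth class. Standard errors are the log2 fold change over the root of F. Permutation tests and correlations used log2 CPM with a prior count of 2; 100000 permutations were drawn for 13 libraries and all 362880 enumerated for 9. DESeq2 1.42.0 and limma 3.58.1 were alternatives, beside other size factors and filters, counts corrected for UMIs drawn more than once, a replicate block and leaving out libraries. The fits were tested on simulated data that held neither the count ceiling nor the 2 shallow clusters. Of 100 changes of 2-fold, 70 were recovered in the shallow fit, 91 over all libraries and 74 in the deep fit. Calls at unchanged genes numbered 12, 11 and 10 in that order.

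The members, lists, depth split and tests were chosen with earlier results of these data known. Named genes were the members, list genes called in any fit, up to 3 per list with the smallest p in shallow libraries, and the 3 genes most like each member. Fits without a count filter for Myf6 and Pax3, permutations within depth classes and summed counts without 4 libraries were read so after seeing the data. Some genes that this rule selects are left out of the text.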

Additional observations from a re-analysis of the deposited data

Results flagged for a closer look

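Of 12 groups of 6 or 7 shallow libraries examined (6 genes in 2 groups), 1 held a library far from the others. Pax7 in control 8 stood at 5.5 log2 CPM, or 44.3 CPM from 19 counts, above the other 6 shallow controls, whose highest was 30.3 CPM. The gap to the nearest control was 0.596 of the group's whole range. Chance flags about 1 in 20 such groups. Control 8 is one of the 4 shallow libraries that stood apart, and without it the shallow Pax7 log2 ratio was 0.38 and no edgeR call (adjusted p = 0.969).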

How the results depend on the processing

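In the shallow libraries the number of genes called, 3 with edgeR, was 13 without a count filter, 6 with DESeq2, 0 without control 7, 8 and 9 and scKO 1, and 1 (without control 3) to 5 (without scKO 1) when 1 library was left out. Over all libraries with the depth class it was 52, and 359 without a filter, 23 with a stricter one, 390 with DESeq2, 100 with limma-voom, 617 without the same 4 libraries, 1 with the group alone, and 11 (without control 1) to 216 (without scKO 1) with 1 library left out. In the deep libraries it was 1884, and 996 (without scKO 7) to 1810 (without control 2) with 1 left out.

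Pax7, Myf5, Myod1 and Myog stayed without a call under every alternative run in the shallow libraries and over all libraries, and Myf6 stayed called under every one in the deep libraries. Pax7 over all libraries was -0.0166 with limma-voom (edgeR gave 0.04) and -0.0372 to 0.20 with 1 library left out. Myf5 in deep libraries was no call with DESeq2 (-0.34) or limma-voom (-0.33), and was -0.41 to -0.26 with 1 left out. The cause of these changes was not tested. Pairs of members past the threshold over the 13 shallow libraries numbered 0, but 1 with plain library totals (Myod1 and Myog, r = 0.741, permutation adjusted p = 0.0257) and 1 with collision-corrected counts (the same pair, r = 0.701, adjusted p = 0.047), against r = 0.676 (permutation adjusted p = 0.0668). This pooled r spans 2 clusters. The r of Myf5 and Myog changed sign with plain totals (0.0043 against -0.12), and without the 4 libraries so did those of Pax7 with Myf5 (-0.0162 against 0.0556) and with Myog (-0.189 against 0.254), while that of Pax7 with Myod1 was 0.00323 against 0.54.

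Same-numbered libraries were not treated as pairs, because 5 of 9, and not all, deviated together with a correlation over 0.1; 3 of 9 correlated best with their own number. With the replicate block 14 genes were called over all libraries against 52 without it, and 3 in the shallow libraries as without it, where the block gave -0.37 against -0.17 for Myf5 and 0.13 against 0.28 for Pax7, neither a call. Depth limits Pax3 and Myf6 in shallow libraries, and the count ceiling limits Myod1, Myog and many of their targets in deep ones, where 3 libraries stand against 2.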
